A study of Mus musculus with 9 samples.

Results

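The response of mouse colon organoids to an aryl hydrocarbon receptor (AHR) ligand was examined in cultures whose epithelium was meant to lack the receptor. Organoids are cultures of epithelium grown from isolated crypts. Of the 9 RNA-seq libraries of the series, 4 belonged to this comparison: 2 AHR KO libraries given 5 nM FICZ for 4 h (replicates 1 and 3) and 2 AHR KO libraries given the solvent DMSO for 4 h (replicates 1 and 3). The 5 WT libraries (2 with DMSO and 3 with FICZ) shared the model fit and served for comparison. All organoids were kept in WENR, a stem cell enrichment medium with Wnt-3A, EGF, Noggin and R-spondin, which both treatments shared. By the methods' recipe, WENR also held SB202190, an ALK5 inhibitor and nicotinamide. Per the study's methods, AHR KO mice carried a floxed Ahr allele with a Villin-driven Cre, which acts in intestinal epithelium, and WT mice were littermates. The methods derive the organoids for RNA-seq from 3 biological replicates, a term they use for mice. The series holds no AHR KO library numbered 2 and no WT DMSO library numbered 1. Neither the methods nor the labels tie replicate numbers 1 and 3 to single mice. The p-values measure the spread between libraries of the same group, pooled over all 9 libraries. Every gene with a mean normalised value of 10 or more over the 9 libraries was included, 12741 of 48795 in the table, and the question was which functions changed with the ligand where the receptor was to be absent.

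AHR is a transcription factor that stays in the cytoplasm with chaperones until a ligand such as FICZ, a tryptophan photoproduct, binds it. It then enters the nucleus, pairs with ARNT and binds DNA at elements with the core GCGTG. Its best-known targets are Cyp1a1 and Cyp1b1, enzymes that oxidise such ligands, and Ahrr, a repressor that limits the receptor. In the gut epithelium the receptor is known for its part in barrier defence and in the return from repair to differentiation.

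Ahr itself was higher, not lower, in the libraries labelled AHR KO. It stood at 1404 and 1346 in the 2 AHR KO DMSO libraries and at 1443 and 1387 in the 2 AHR KO FICZ libraries, against 783 to 858 in the 5 WT libraries. Values per gene do not show whether these transcripts lack exons, so that the label was not checked by this gene. AHR KO stands for libraries labelled so throughout. Across genes, r between 2 libraries of 1 group was 0.986 to 0.991, and no library held the values of another. Normalised values summed to between 23177058 and 24121321 in the AHR KO libraries. All 13 colon epithelium markers examined were above 10 in all 4 AHR KO libraries. Their summed level was 279087 to 279123 with DMSO and 272766 to 298288 with FICZ. Of 10 fibroblast markers, 1 was above 10 in all 4 libraries and 2 were at 0 in all of them (Dcn and Lum), with sums of 21.8 to 37.4 with DMSO and 42.8 to 43.0 with FICZ. Of 10 immune markers, 2 (Cd68 and Cd74) were above 10 in all 4 libraries and 6, among them Ptprc and Cd3e, were at 0, with sums of 535 to 628 and 603 to 759. Endothelial and nerve markers (8 genes) summed to 38.2 to 67.7 with DMSO and 39.6 to 53.4 with FICZ. The fibroblast sums did not overlap between treatments, and their part in the results was not tested.

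Promoters are shown first for 3 known AHR targets that rose with FICZ and for Slc2a6, another gene that rose. They were chosen after the values were seen, to show where the receptor's element stands. The sequences are RefSeq promoters on GRCm38.p6 (250 bases before to 50 after the start of the gene, read along its strand), in lower case with each GCGTG, or its reverse complement CACGC, in capitals. Ahrr lies at chr13:74292282-74292581 on the minus strand, Cyp1a1 at chr9:57697363-57697662 on the plus strand, Cyp1b1 at chr17:79715012-79715311 on the minus strand and Slc2a6 at chr2:27027949-27028248 on the minus strand. For Cyp1a1 the start used for this window lies inside the gene span given below, which begins at 57687928.
Ahrr: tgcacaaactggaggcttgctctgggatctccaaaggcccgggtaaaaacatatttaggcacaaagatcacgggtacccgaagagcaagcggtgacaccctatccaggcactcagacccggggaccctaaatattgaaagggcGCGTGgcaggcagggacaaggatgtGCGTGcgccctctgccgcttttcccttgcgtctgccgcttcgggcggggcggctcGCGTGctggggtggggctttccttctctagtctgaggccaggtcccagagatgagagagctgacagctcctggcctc
Cyp1a1: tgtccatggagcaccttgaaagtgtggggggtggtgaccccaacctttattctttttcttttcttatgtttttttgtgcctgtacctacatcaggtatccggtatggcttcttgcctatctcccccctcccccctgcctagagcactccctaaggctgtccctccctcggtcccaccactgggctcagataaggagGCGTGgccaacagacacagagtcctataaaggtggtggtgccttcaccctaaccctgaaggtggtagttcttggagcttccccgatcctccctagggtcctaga
Cyp1b1: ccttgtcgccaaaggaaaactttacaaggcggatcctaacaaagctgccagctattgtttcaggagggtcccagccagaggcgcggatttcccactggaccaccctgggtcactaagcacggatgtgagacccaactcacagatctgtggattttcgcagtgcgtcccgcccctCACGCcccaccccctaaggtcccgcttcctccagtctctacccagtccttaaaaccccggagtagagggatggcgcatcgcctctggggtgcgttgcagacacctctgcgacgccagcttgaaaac
Slc2a6: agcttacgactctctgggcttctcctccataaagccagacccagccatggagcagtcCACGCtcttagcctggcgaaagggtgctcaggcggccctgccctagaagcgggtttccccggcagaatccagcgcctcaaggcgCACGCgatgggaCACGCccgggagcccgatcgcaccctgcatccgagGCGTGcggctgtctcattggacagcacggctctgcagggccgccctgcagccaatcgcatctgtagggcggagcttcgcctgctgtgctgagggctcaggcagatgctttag
The core occurred 3 times before Ahrr, 4 times before Slc2a6 and once each in the windows of Cyp1a1 and Cyp1b1. Such a window is not specific to these genes. At least 1 core on either strand was found in 53.01% of the 9607 promoters matched to tested genes by symbol (5093). The longer form TNGCGTG, on either strand, was found in 8.39% (806).

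Of the receptor targets, 3 rose in AHR KO organoids. Cyp1a1 (ENSMUSG00000032315, chromosome 9, 57687928 to 57703824) had 0 and 2.93 normalised values with DMSO and 100.3 and 138.8 with FICZ. Both FICZ libraries were above both DMSO libraries, and the log2 change on the log2(value + 1) scale was 5.91 ± 0.783 (SE, n = 2 against 2, limma adjusted p = 0.00209). Over the alternatives tried this change ran from 3.49 (pseudocount 10) to 7.75 (pseudocount 0.1). After removal of a GC trend, described below, Cyp1a1 missed the threshold without AHR KO DMSO replicate 1 (adjusted p = 0.0747). Ahrr (ENSMUSG00000021575, chromosome 13, 74211118 to 74292331) was listed at 0 in both DMSO libraries and reached 16.9 and 17.3 with FICZ (limma adjusted p = 0.000474). Cyp1b1 (ENSMUSG00000024087, chromosome 17, 79701537 to 79715061) went from 34.5 and 25.4 to 136.6 and 222.0, a log2 change of 2.52 ± 0.242 (SE, limma adjusted p = 0.00112). The groups did not overlap for any of the 3 genes. Background for that is high with 2 libraries a group: 62.5% of all genes tested had AHR KO groups that did not overlap.

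The remaining AHR targets were not called higher before correction for GC content. Tiparp, an ADP-ribosyltransferase that restrains the receptor, had 1164 and 1064 with DMSO and 1304 and 1137 with FICZ, and the groups overlapped. Nqo1, a quinone reductase, stood at 267 and 242 against 288 and 295 (log2 change 0.20, limma adjusted p = 0.115), with both FICZ libraries above both DMSO libraries. After the correction its log2 change was 0.32 (adjusted p = 0.0517). Aldh3a1, an aldehyde dehydrogenase, ranged over 51.6 to 98.2 with FICZ, on both sides of its DMSO values of 58.0 and 67.7. Ugt1a6a and Ugt1a7c, glucuronosyltransferases of 1 overlapping locus whose reads are hard to split, had adjusted p of 0.203 and 0.504 in limma. Nfe2l2, the master regulator of antioxidant genes, was lower before correction for GC content (8159 and 7856 against 6675 and 6600, log2 change -0.27, limma adjusted p = 0.00946) and was not called after it (-0.11, adjusted p = 0.299). Of the 9 battery genes tested, 3 were called higher and 1 lower, beside 10.2% and 9.48% of all genes. After the correction 4 were called higher, beside 1.48% of all genes, the fourth being Tiparp (0.33 ± 0.077, adjusted p = 0.0441), whose call was lost without any 1 of the AHR KO libraries.

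**Figure D1:**
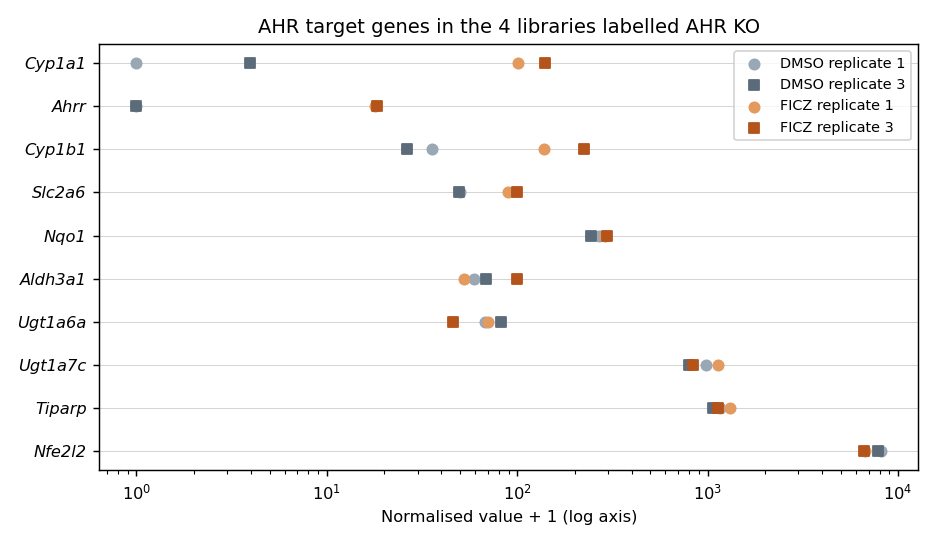
Normalised value + 1 (log axis) of 9 AHR battery genes and Slc2a6 in each library labelled AHR KO, circles for replicate 1 and squares for replicate 3, grey for DMSO and orange for FICZ. Cyp1a1, Ahrr, Cyp1b1, Slc2a6 and, by a small margin, Nqo1 show FICZ points to the right of both DMSO points, while Aldh3a1, Ugt1a6a, Ugt1a7c and Tiparp overlap.

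Across all genes, FICZ against DMSO in AHR KO gave 2509 calls in limma at an adjusted p under 0.05, 19.7% of the 12741 genes tested. Of these, 1301 were higher (10.2%) and 1208 lower (9.48%). The size of a called change was 0.36 in the median, on the log2 scale. In bulk libraries fewer cells of a type and less RNA per cell cannot be told apart.

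The direction of these changes followed base composition. Genes were split into 10 bins of about equal size by the GC content of their transcripts. The median log2 change rose at every step, from -0.22 in the bin with the lowest GC content (up to 42.7%) to 0.35 in the bin with the highest (from 58.02%). In the lowest bin 3 genes were called higher and 339 lower, and in the highest bin 522 were called higher and 6 lower. Genes called higher had a median GC content of 57.1% and genes called lower 44.8%, against 50.5% for all genes tested. Across genes the correlation of GC content with the log2 change was 0.43 (Pearson, 12704 genes that share their libraries).

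The gradient was present in each replicate number taken alone. The median of the highest bin minus that of the lowest was 0.47 to 0.68 in the 4 possible pairs of an AHR KO FICZ with an AHR KO DMSO library. WT pairs gave 0.43 to 0.61 (6 pairs). Between libraries of the same group the difference was at most 0.16 in absolute size (6 pairs). The gradient went with FICZ in both genotypes and was larger than that between replicates. Effects of the ligand and of any step that differed between FICZ and DMSO libraries cannot be told apart here.

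**Figure D2:**
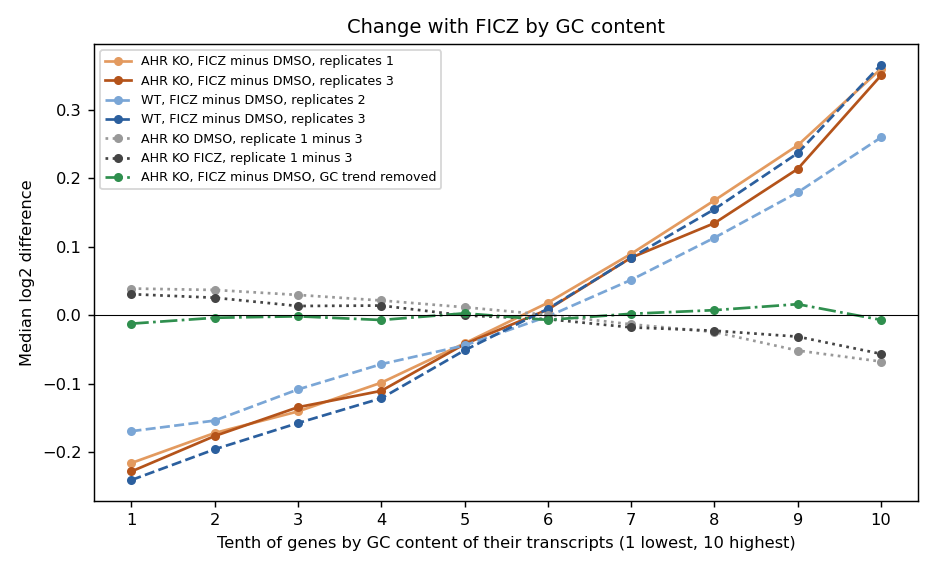
Median log2 difference in each of 10 bins of genes by GC content, for FICZ minus DMSO within replicate numbers (AHR KO in orange, WT in blue dashes), for replicate 1 minus 3 within an AHR KO group (grey dots), and for AHR KO after the trend was removed (green). The AHR KO medians climb from -0.22 to 0.35, the replicate differences stay within 0.07 of 0, and the corrected values stay within 0.02.

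GC content was then taken into account by removing, from each library, a smooth trend of its deviations on GC content. This also takes away any real change that has the same shape. The fit after removal gave 536 calls (4.22% of 12704 genes with a GC value), 188 higher (1.48%) and 348 lower (2.74%). With quantile normalization of the libraries the split was 299 higher and 249 lower. Called in the same direction before and after removal were 404 genes (3.18%), of which 163 were higher (1.28%) and 241 lower (1.9%). Thus 12.5% of the higher calls and 19.95% of the lower calls were kept. The 404 genes, referred to below as called in both fits, had median GC contents of 53.4% (higher) and 50.4% (lower). They rest on few libraries: without AHR KO DMSO replicate 1, which leaves 1 DMSO library, 7 genes were called in both fits, and without any other AHR KO library 70 to 133.

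Genes called in both fits mostly changed in WT as well. After removal of the trend, 2222 genes were called in WT (17.5%). Of the 404 genes, 326 were among them in the same direction and none in the opposite direction, which is 80.7% of the AHR KO genes and 14.7% of the WT calls. Both comparisons use the same estimate of each gene's spread, so their calls are not independent. The median log2 change of the 163 higher genes was 0.42 in AHR KO and 0.37 in WT, and that of the 241 lower genes was -0.40 and -0.36 (GC trend removed). The difference between genotypes was called for 57 genes before removal (0.447%) and 64 after it (0.504%), of which 6 were among the 404: Ahrr, Cebpd, Slc2a6, Tsku and the pseudogenes Gm10052 and Gm10146.

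Among the lists of at least 20 genes, the one for making ribosomes had the highest share of genes called in both fits. Ribosome biogenesis takes place in the nucleolus, where RNA polymerase I transcribes ribosomal RNA and small nucleolar particles modify it. Of 33 genes tested, 16 were called lower and 1 higher before removal of the GC trend. After removal 12 were called lower and none higher, and 10 (30.3%) were called lower in both fits, beside 1.9% of all genes. The list's median log2 change was -0.17 before and -0.21 after removal, with medians of all genes at -0.01 and -0.00. By replicate number its median was -0.29 and -0.09 before removal, lower in both. The count was not stable: without AHR KO DMSO replicate 1 none was called after removal, and without each other AHR KO library in turn 2 to 6 were. Quantile normalization left 6 and the replicate block 7.

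Ncl, nucleolin, the most abundant of them (ENSMUSG00000026234, chromosome 1, 86344719 to 86359400), fell from 48081 and 44082 with DMSO to 30280 and 32847 with FICZ. Its log2 change was -0.55 ± 0.0653 (SE, limma adjusted p = 0.00176), and -0.42 after removal (adjusted p = 0.0123). Rrp9, a protein of the U3 particle that starts cleavage of the precursor RNA, fell from 1044 and 1058 to 781 and 761. Rrp9 is rich in GC (58.2%), so that its log2 change grew from -0.45 to -0.73 when the trend was removed (adjusted p = 0.00254). Nop58 and Nop56, the paired core proteins of the methylating box C/D particles, fell as well. Nop58 went from 6146 and 5366 to 4137 and 4181, and Nop56 from 5746 and 5413 to 4385 and 4595.

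Genes of RNA polymerase I differed among themselves. Polr1a, its largest subunit, fell from 3850 and 3914 to 2997 and 3166 (log2 change -0.33 before and -0.32 after removal, limma adjusted p = 0.0305 after it). Ubtf, which opens ribosomal DNA for the polymerase, fell from 4001 and 3889 to 3095 and 3329 (-0.47 after removal, adjusted p = 0.00331). Polr1b, the second largest subunit, was not called (1434 and 1571 against 1675 and 1672), nor was Polr1c. Nolc1, together with Pes1, Nop16 and Ltv1, which act in assembly of the subunits, completed the 10 genes. Npm1, an abundant nucleolar chaperone (43647 and 40174 against 29725 and 31287), was called before removal and missed the threshold after it (-0.24, adjusted p = 0.0515). Bop1, a partner of Pes1 with a GC content of 58.3%, was called higher before removal (0.28) and stood at -0.00 after it. Apart from Ncl, Nop58 and Rrp9, the genes of this list were picked for mention after their values were seen. In WT, 22 of the 33 genes were called lower after removal, beside 9.6% of all genes.

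**Figure D3:**
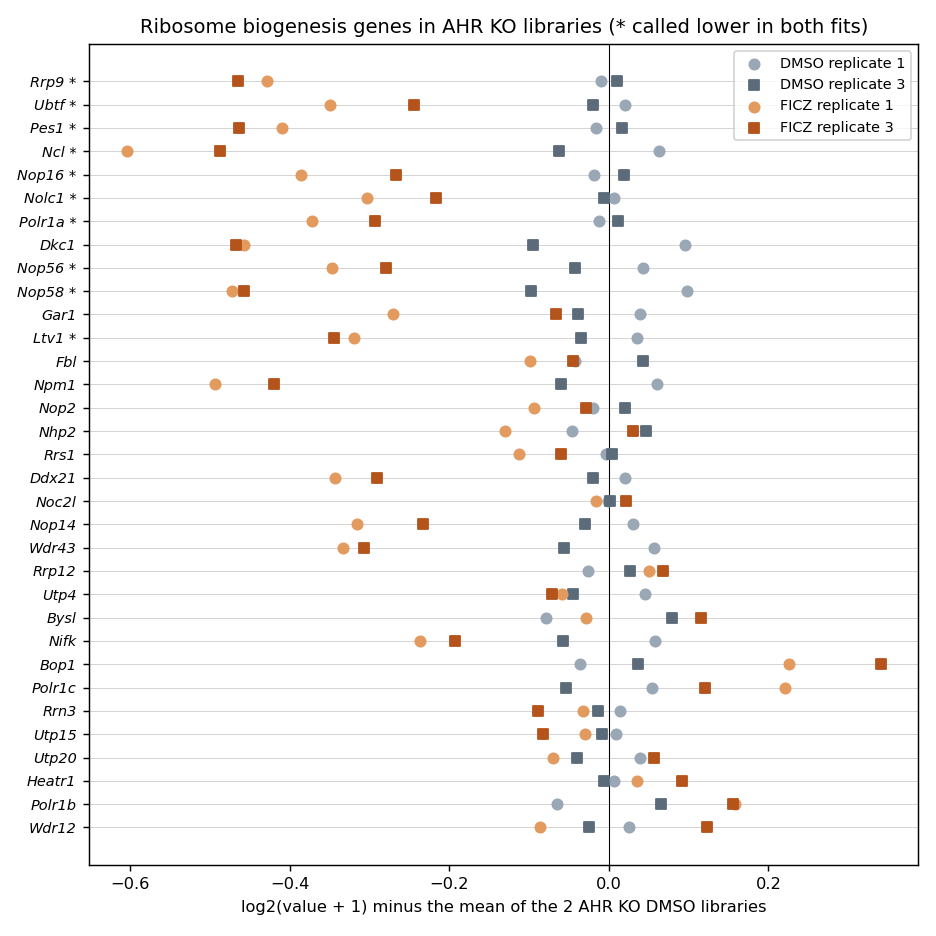
Each of the 33 ribosome biogenesis genes tested, as log2(value + 1) minus the mean of both AHR KO DMSO libraries, before removal of the GC trend (grey DMSO, orange FICZ, circles replicate 1, squares replicate 3). The 10 starred genes, called lower in both fits, have both FICZ points left of both DMSO points; Polr1b, Polr1c and Bop1 have them to the right.

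Splicing factors were also called lower more than higher. Of 53 tested, 27 were called lower and 4 higher before removal, and 6 lower and 2 higher in both fits. Of all genes, 9.48% were called lower and 10.2% higher before removal, and 1.9% and 1.28% in both fits. The median GC content of the list was 47.2%, under that of all genes, and its median log2 change went from -0.19 to -0.13 on removal. Hnrnpd, an RNA-binding protein of AU-rich messages, fell from 5587 and 5194 to 3799 and 3836 (log2 change -0.37 after removal, limma adjusted p = 0.0144). Snrpb2, a protein of the U2 particle, fell from 1790 and 1670 to 1168 and 1197. The other direction held as well. Snrpb, a core Sm protein of the spliceosome, rose from 1669 and 1883 to 2643 and 2918, and Sf3b5, a small subunit of the SF3b complex, from 648 and 780 to 1175 and 1363 (log2 change 0.98 after removal, adjusted p = 0.00484). Without AHR KO DMSO replicate 1 no splicing factor was called after removal, and without AHR KO DMSO replicate 3 or AHR KO FICZ replicate 1 none was called lower. With quantile normalization 5 were called higher and 4 lower after removal.

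Protein folding genes of the cytosol, mitochondria and endoplasmic reticulum were partly lower. Of 20 heat shock genes, 4 were called lower in both fits and none higher, beside 1.9% and 1.28% of all genes, shares that also stand behind the next counts. Hspd1 and Hspe1, the paired chaperonins of mitochondria that share a promoter region, fell from 24425 and 23997 to 18763 and 19316 and from 4698 and 4639 to 3475 and 3656. Hspa4, a nucleotide exchange factor, fell from 15749 and 14496 to 11195 and 10870, and Stip1 (outside the rule), a co-chaperone that links HSP70 to HSP90, fell by 0.24 on the log2 scale after removal. The inducible Hspa1a and Hspa1b, named outside the rule, were called higher before removal (0.55 and 0.44) and not after it (0.23 and 0.16).
Of 23 genes of the unfolded protein response, Calr, Canx and Pdia3, which fold glycoproteins, were called lower in both fits. Calr went from 28884 and 27347 to 22582 and 21423. Syvn1, the ligase that removes misfolded proteins from the reticulum, rose from 930 and 841 to 1359 and 1341 (log2 change 0.38 after removal, limma adjusted p = 0.033). Of 37 proteasome genes, 3 were called lower in both fits and none higher. Psmc3, an ATPase of the regulatory particle, had the largest change, from 5418 and 5362 to 3872 and 3822 (-0.56 after removal, adjusted p = 0.00307). Without either AHR KO DMSO library no heat shock gene was called after removal, and with quantile normalization 1 was.

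Genes of the respiratory chain and of the ribosome were called in both directions with all 4 AHR KO libraries. Of 79 nuclear genes of oxidative phosphorylation, 9 were called higher and 4 lower in both fits, beside 1.28% and 1.9% of all genes, and the median of the list was 0.02 after removal. After removal alone 11 were called higher and 4 lower. Without AHR KO DMSO replicate 1 none was called, without any other AHR KO library 2 or 3 were called higher and 1 or 2 lower, and the median was -0.017 without AHR KO FICZ replicate 1. Within complex I, the NADH dehydrogenase, Ndufa10 fell from 4234 and 3853 to 3145 and 2912 and Ndufa5 from 1167 and 1135 to 790 and 801, while Ndufb2 rose from 243 and 270 to 373 and 362. Atp5d, the delta subunit of ATP synthase, rose from 3383 and 3563 to 5419 and 5570, and its log2 change of 0.66 became 0.33 on removal (GC content 59.4%). The 15 genes of the mitochondrial genome, median GC content 36.0%, gave no call in both fits, and their median went from -0.17 to 0.06.
Of 81 cytosolic ribosomal protein genes, 4 were called higher and 7 lower in both fits, beside the same shares of all genes. After removal alone 4 were called higher and 9 lower. When any 1 AHR KO library was left out none was called higher, and 1 (without AHR KO DMSO replicate 1) to 5 were called lower. Quantile normalization gave 8 higher and 7 lower and turned the median from -0.05 to 0.03. Rpl23 fell from 28008 and 26094 to 19056 and 18679 (log2 change -0.56 after removal, limma adjusted p = 0.00307), Rpl35 from 10597 and 10823 to 8448 and 7926, while Rpl13 rose from 11472 and 12124 to 16797 and 16418. These genes share sequence with many processed pseudogenes, so the split of reads is uncertain. Rps13, named outside the rule, shows this. It was called higher in both fits (5332 and 5658 against 6594 and 6756), but its pseudogene Rps13-ps2 stood at 1265 and 1264 with DMSO and 285 and 484 with FICZ. Their sums were 6597 and 6923 with DMSO and 6880 and 7240 with FICZ, and these overlap.

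Other steps of protein synthesis were examined next. Of 52 translation initiation genes, 3 were called lower in both fits and 1 higher, beside 1.9% and 1.28% of all genes. Eif5b, which joins the subunits, fell from 8011 and 7089 to 5228 and 5500, and Eif3j1, a loosely bound eIF3 subunit, from 1980 and 2058 to 1699 and 1695. Eif3f, another eIF3 subunit, rose from 4506 and 4702 to 5740 and 5640. After removal alone 6 of the 52 were called lower and 1 higher. Without either AHR KO DMSO library none was called, without either FICZ library 2 were called lower, and with quantile normalization 2 were called in each direction. The replicate block and a fit to the AHR KO libraries alone left 3 lower and 1 higher. Of 21 aminoacyl-tRNA synthetases, Sars alone was called in both fits (lower, -0.23 after removal), and of 77 mitochondrial ribosomal proteins, Mrps5 alone (lower, -0.37), beside 3.18% of all genes called in both fits.

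**Figure D4:**
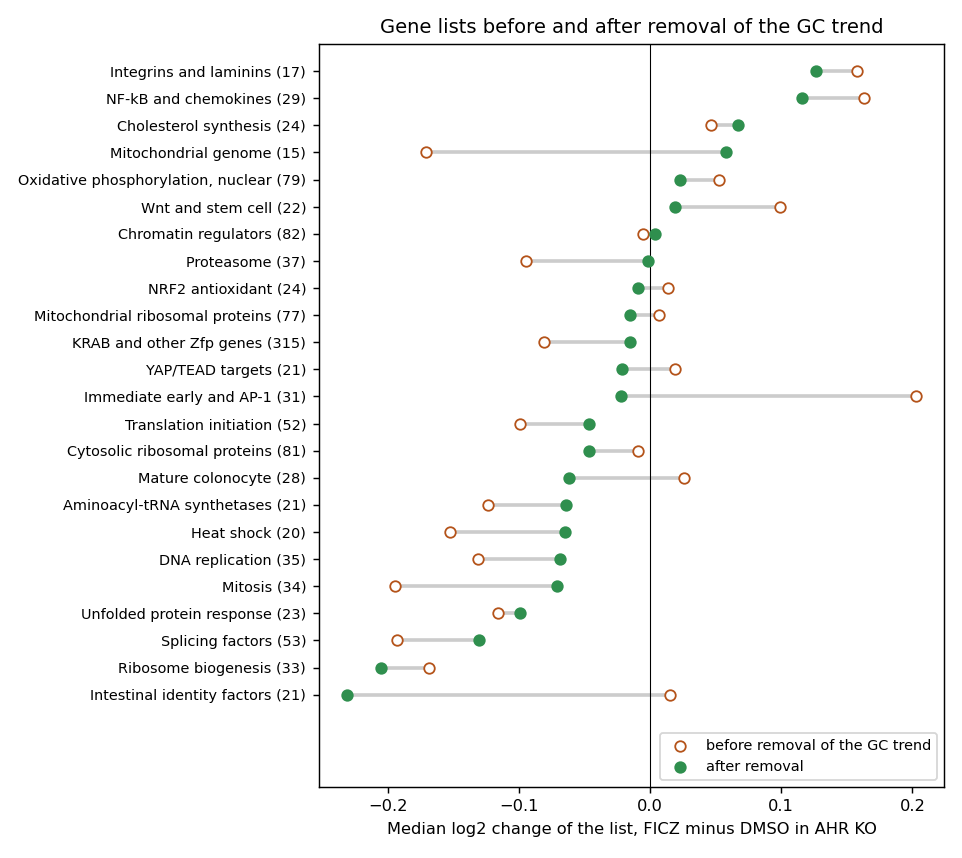
Median log2 change (FICZ minus DMSO in AHR KO) of 24 gene lists before (open) and after (filled) removal of the GC trend, with the number of genes tested in brackets. The 24 were picked from the 51 lists without a set rule. Some lists left out had larger absolute medians after removal, among them nuclear noncoding RNA (0.37), replication-dependent histones (0.37), the AHR battery (0.32) and the AHR complex (-0.22). Ribosome biogenesis stays at -0.17 and -0.21, while the immediate early genes go from 0.20 to -0.02 and the mitochondrial genome from -0.17 to 0.06.

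Several lists held calls mainly before removal of the GC trend. Of 51 lists, 27 held at least 1 gene called in both fits and 18 held calls before removal and none in both fits. Of 31 immediate early genes, 9 were called higher and none lower before removal, with a median GC content of 55.3%. Cebpd alone was called in both fits (higher), near the 3.18% of all genes. After removal alone 1 was called higher and 2 lower, and the list's median went from 0.20 to -0.02. Cebpb, a relative of Cebpd with a GC content of 67.2%, shows the loss. It had 260 and 296 with DMSO and 571 and 528 with FICZ, a log2 change of 0.98 that became 0.22 on removal (limma adjusted p = 0.391). Jund, an AP-1 subunit named outside the rule, went from 0.63 (adjusted p = 0.0019) to -0.13 (0.135).
Before removal, 7 of 24 cholesterol synthesis genes and 6 of 29 genes of NF-kB signalling and chemokines were called higher, beside 10.2% of all genes, and none was after it. Their medians did not go to 0 with the calls. The cholesterol list had a median log2 change of 0.05 before and 0.07 after removal, with 19 of 24 genes then above 0, and the NF-kB list 0.16 and 0.12, with 23 of 29 above 0. Wnt and stem cell genes (3 of 22 called higher before removal, none after it) were close to that share. On the lower side, 11 of 34 mitosis genes were called before removal, beside 9.48% of all genes, and Kif20b, a kinesin of cell division with a GC content of 37.4%, alone in both fits (2014 and 1994 against 1344 and 1414). Of 35 DNA replication genes, Lig1, the ligase that seals Okazaki fragments, alone was called in both fits (3811 and 4016 against 2664 and 2924, log2 change -0.55 after removal, adjusted p = 0.00484). Of 315 genes named Zfp, largely zinc finger factors, 16 were called higher and 22 lower before removal, both under the shares of all genes (10.2% and 9.48%), and Zfp961 alone was called in both fits. Called in both fits were 3.18% of all genes. The counts of 1 of 34 mitosis and 1 of 35 DNA replication genes were near that share, and 1 of 315 Zfp genes was under it. After removal alone 3 DNA replication genes and 1 mitosis gene were called lower, beside 2.74% of all genes. Below 0 were then 27 of the 35 DNA replication genes and 26 of the 34 mitosis genes.

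None of 28 mature colonocyte genes was called in limma before removal, beside 19.7% of all genes, or after it, beside 4.22%. At an unadjusted p under 0.05 there were 4 before removal, where at least the called 19.7% of all genes were. After removal there were 2, beside 2545 of all 12704 genes. No goblet gene (12 tested) and no enteroendocrine or tuft gene (5 tested) was called in both fits. With 3.18% of all genes called in both fits, lists of 12 and 5 genes may hold none. Intestinal identity factors are transcription factors that set the fate of gut epithelium. Their median log2 change moved from 0.02 to -0.23 on removal, 18 of 21 were then below 0 and 3 were called lower, beside 2.74% of all genes. In both fits 1 was called. Ehf, an ETS factor of epithelia, fell in both fits (12262 and 11517 against 9089 and 8914). Klf4 and Foxa1, named outside the rule, were called only after removal (-0.42 each). For Klf4 (GC content 61.5%) the values themselves overlapped, 2890 and 2931 with DMSO and 3077 and 2828 with FICZ. Krt7, a keratin counted with fetal-like genes, fell from 59467 and 63916 to 44012 and 52258. Cldn3, a tight junction protein, rose from 3051 and 3279 to 5190 and 5261, though its log2 change of 0.72 became 0.22 on removal (GC content 62.7%, adjusted p = 0.0402). Smad2, a mediator of TGF-beta signals, fell from 1457 and 1573 to 1137 and 980.

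Single genes of lipid metabolism had opposite changes. Fasn, fatty acid synthase, rose from 11110 and 12606 to 18793 and 21312 (log2 change 0.76 before and 0.43 after removal, limma adjusted p = 0.0195). Acsl3, which activates fatty acids for lipid droplets, fell from 5948 and 5790 to 3657 and 3239, and Acadm, an enzyme of beta-oxidation, from 1705 and 1444 to 1123 and 1061. Among 24 antioxidant genes, Ftl1, the light chain of the iron store ferritin, alone was called in both fits (17389 and 18237 with DMSO, 24815 and 27336 with FICZ). Among chromatin regulators (82 tested), Smarce1, a subunit of SWI/SNF remodellers, and Kmt5a, a histone H4 methyltransferase, fell, and Ep300, a histone acetyltransferase, rose from 2792 and 2642 to 3307 and 3509. These counts, 1 of 24 and 3 of 82, are near the 3.18% of all genes called in both fits.

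By size of change, other protein-coding genes with a mean of 50 or more followed the AHR targets. Among these Rpusd3, a pseudouridine synthase of mitochondria, rose most, from 48.4 and 90.3 to 202 and 153 (log2 change 1.04 after removal, limma adjusted p = 0.0499). Before removal Rpusd3 changed by 2.04 in replicate 1 and 0.75 in replicate 3. After removal it stood at 0.63 without AHR KO DMSO replicate 1 (adjusted p = 0.304), and the call was also lost without either FICZ library (0.0758 and 0.209). Pgp, a phosphatase that removes side products of glycolysis (ENSMUSG00000043445, chromosome 17, 24470392 to 24473110), rose from 560 and 669 to 1213 and 1177 (0.96 ± 0.0864 before and 0.76 ± 0.0821 after removal, SE, adjusted p = 0.00331). Pgls, an enzyme of the pentose phosphate pathway, rose from 471 and 502 to 976 and 954. Its log2 change went from 0.99 to 0.48 when the trend was removed (GC content 62.8%). Ppp2r3d, Rabac1, Wdfy1, Kdelr3 and Rhbdd2 also rose, by 0.66 to 0.90 on the log2 scale after removal. Slc2a6, a hexose transporter whose promoter is shown above, rose from 49.1 and 48.2 to 88.0 and 98.5 (0.62 after removal, adjusted p = 0.0385). This call was lost when any 1 of the 4 AHR KO libraries was left out, with the replicate block, with AHR KO libraries only, with a pseudocount of 10 and without a filter (adjusted p = 0.0507 to 0.169).

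Decreases reached -1.24 before removal in Clec2h, a lectin-like receptor (162 and 121 against 67.8 and 50.7). Fcgr2b, an inhibitory receptor for immunoglobulin G, fell from 372 and 324 to 201 and 122. Ewsr1, an RNA-binding protein, fell from 10675 and 9518 to 5000 and 6096, and Abcf1, which acts in translation initiation (ENSMUSG00000038762, chromosome 17, 35956819 to 35969761), from 9532 and 8779 to 5318 and 5497. Abcf1 changed by -0.76 ± 0.0785 before and -0.91 ± 0.0893 after removal (SE, limma adjusted p = 0.00258). Clspn, a checkpoint adaptor at replication forks, fell from 1982 and 1943 to 1186 and 1241. Pam16, Pou2f2, Cacna1e, Ccdc186, Ccdc122 and Oit1 fell by 0.52 to 1.30 on the log2 scale after removal.

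**Figure D5:**
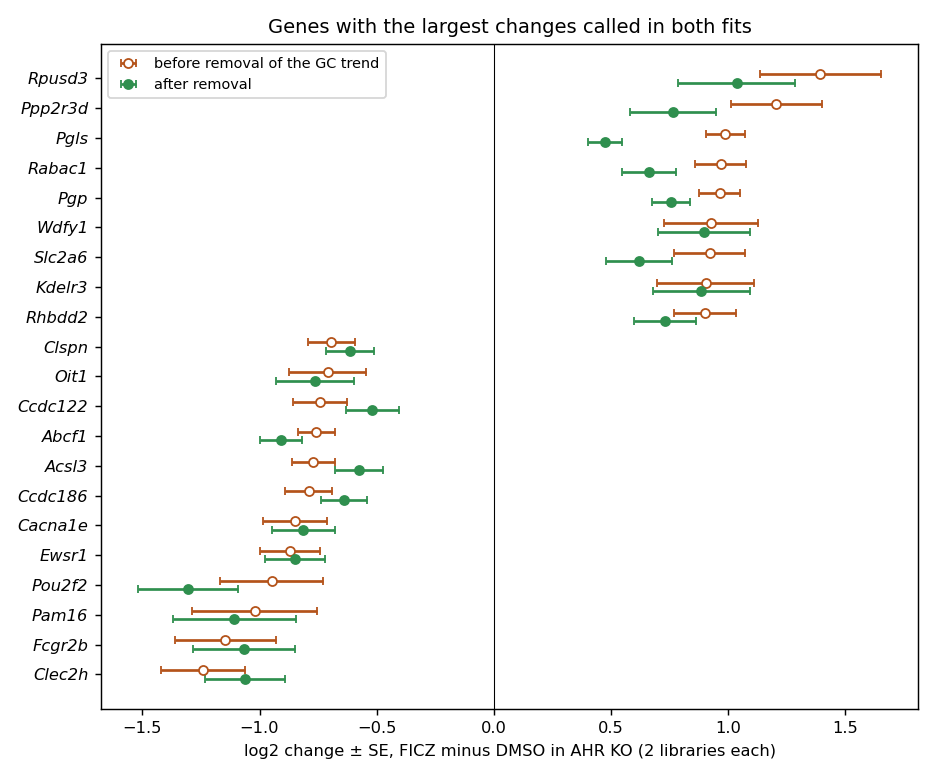
Log2 change ± SE (n = 2 against 2) of the protein-coding genes with the largest changes called in both fits (only genes whose mean reached 50), before (open) and after (filled) removal of the GC trend, leaving out Cyp1a1, Ahrr and Cyp1b1. Pgls drops from 0.99 to 0.48, while Ewsr1 stays at -0.87 and -0.85.

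Pseudogenes gave calls mostly in the lower direction. Of 273 tested, 31 (11.4%) were called in both fits, 5 higher and 26 lower, beside 3.18% of all genes, and they share reads with their parent genes. Rps12l1 went from 1877 and 1531 to a listing at 0 in both FICZ libraries, Gm10052 from 1351 and 1174 to 0 in both, and Gm13597 from 80.8 and 75.2 to 0 in both. Gm10146 was listed at 0 in both DMSO libraries and stood at 158 and 98.7 with FICZ. Hist2h2aa1, a histone gene with a near-identical copy, was listed at 0 with DMSO and at 47.5 and 36.0 with FICZ, while its copy Hist2h2aa2 (named outside the rule) went from 24.3 and 26.6 to 13.8 and 13.7. Summed, the pair stood at 24.3 and 26.6 with DMSO and 61.3 and 49.8 with FICZ. The noncoding Gm26917 had the largest loss on removal among all listed genes (GC content 70.7%). It went from 699 and 847 to 2339 and 1992, and its log2 change of 1.49 became 0.51.

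Most of the 404 genes called in both fits belonged to no list, and 84 belonged to at least 1. Among the latter, Pim3, a survival kinase, rose from 909 and 939 to 1484 and 1563, and Siah2, a ubiquitin ligase, from 448 and 470 to 617 and 576. Atg9a, a membrane protein of autophagy, rose from 853 and 851 to 1236 and 1227 (log2 change 0.29 after removal, limma adjusted p = 0.0299). Pkp4, a plakophilin of cell junctions, fell from 7199 and 7036 to 5926 and 5535. Xist, the RNA that silences an X chromosome, rose from 4557 and 4012 to 5296 and 6083 (0.61 after removal, adjusted p = 0.0327). Lists of interferon response (31 tested), p53 targets (26), glycolysis and hypoxia (31) and circadian clock genes (18) had no gene called after removal, where 4.22% of all genes were, so that lists of this size may hold none. At an unadjusted p under 0.05 they then held 4, 5, 1 and 2 genes in limma, in that order. Of all 12704 genes 2545 were under it, and none of these lists held a larger share. The 26 replication-dependent histone genes had a median log2 change of 0.36, but by replicate number it was 1.21 in replicate 1 and 0.01 in replicate 3.

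The promoter elements were counted for the called genes as well. At least 1 GCGTG was present in 61.2% of the promoters of genes called higher in both fits (74 of 121) and in 59.1% of those called lower (107 of 181), beside 53.01% of all. TNGCGTG was present in 16.5% (20 of 121) and 10.5% (19 of 181), beside 8.39%. For all genes called before removal these shares were 8.82% (higher) and 8.77% (lower). A match of letters is no binding site.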

How the data were processed

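The 9 libraries are rRNA-depleted and stranded per the study's methods. The authors deposited 1 table of normalised values per gene, a signal with no value below 0. The submitters' processing notes name STAR 2.5.2a, RSEM 1.2.31, DESeq2 1.16.1 and GRCm38, whereas the methods name another counter, so how the table was scaled is not given in the sources used here. Only 37.0 to 44.0% of low values in AHR KO libraries lay within 0.02 of a whole multiple of the commonest low value, so reads were not recovered and no count test was run.

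Everything further was computed here. Of 48795 rows, 48435 (99.3%) matched GENCODE M21 (GRCm38). Genes with a mean of 10 or more were fitted as log2(value + 1) with limma 3.58.1 in R 4.3.3 (eBayes with trend), all 9 libraries and 4 groups in 1 fit, and called at a Benjamini-Hochberg adjusted p under 0.05, two-sided. Changes of low genes are understated on this scale. The second fit first subtracted from each library a natural spline (5 df) of its deviations from the gene mean on GC content (mean over the gene's transcripts), known for 12704 genes. Both fits were also run on simulated data, with no outcome given here, and no result rests on that. Comparisons were FICZ against DMSO in AHR KO, the same in WT, and their difference. Alternatives were the pseudocount (0.1, 10), filters, TMM and quantile scaling, AHR KO libraries only, robust eBayes, a replicate block, leaving out each library, and other forms of the GC trend.

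The 51 gene lists and the comparison were chosen with earlier results of these data known, and 2 names entered by mistake (Xpnpep3 and Lars2) were taken out of them after the values had been seen. Named genes were the AHR battery, up to 12 highest and 12 lowest changes among genes called in both fits (mean of 50 or more, groups apart, no predicted models), up to 3 per direction and list, up to 3 list genes with the largest loss on GC removal, and up to 4 noncoding or pseudogene models. Lists are described by counts and medians, without a set test.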

Additional observations from a re-analysis of the deposited data

Results flagged for a closer look

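For 9 named genes the FICZ change differed between WT and AHR KO in the interaction test of limma (GC trend removed, differences as WT minus AHR KO on the log2 scale). For 6 protein-coding genes the change was higher in WT: Aldh3a1 by 2.92 (adjusted p = 0.03), Slc2a6 by 2.32 (0.000366), Tiparp by 1.71 (0.000104), Nqo1 by 1.41 (0.000217), Nfe2l2 by 0.71 (0.00246) and Ahrr by 3.38 (0.00964), the last being listed at 0 in AHR KO DMSO, so its fitted size moves with the pseudocount and is no bound. Cyp1a1 was not among them (adjusted p = 0.0638), with a difference of 5.59 ± 1.07 (SE) that moves with the pseudocount. Its FICZ libraries stood at 6987 to 7958 in WT and at 100.3 and 138.8 in AHR KO. For Cyp1b1 the difference was 0.38 ± 0.328 (SE, adjusted p = 0.864), though its levels were far apart. In WT Cyp1b1 stood at 1632 and 1078 with DMSO and at 8898 to 10600 with FICZ. In AHR KO it stood at 34.5 and 25.4 with DMSO and at 136.6 and 222.0 with FICZ.

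Cebpd, a C/EBP transcription factor, went the other way, with a difference of -0.99 (adjusted p = 0.0118). It rose in AHR KO (323 and 317 with DMSO, 577 and 491 with FICZ, log2 change 0.80) and had a log2 change of -0.19 in WT (adjusted p = 0.186).

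The pseudogenes Gm10052 (7.87, adjusted p = 3.88e-05) and Gm10146 (-6.96, adjusted p = 0.0134) were also called. Both were listed at 0 in 1 of the AHR KO groups, so these fitted differences are no measure of size.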

How the results depend on the processing

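Removal of the GC trend moved the AHR KO calls from 2509 to 536 (188 higher, 348 lower) and the WT calls from 3928 to 2222. Leaving out 1 library gave 420 to 1544 AHR KO calls (236 to 743 higher, 184 to 801 lower). With the trend removed it gave 7 to 169 (3 to 45 higher, 4 to 124 lower), and in both fits 7 to 133 (3 to 39 higher, 4 to 94 lower). The lowest counts came without AHR KO DMSO replicate 1. Calls in WT ran from 1990 to 4133 and those of the difference between genotypes from 23 to 78. A fit to the AHR KO libraries alone gave 346 calls with the trend removed (115 higher, 231 lower) and 101 higher in both fits. Quantile normalization gave 299 higher with the trend removed, and 310 of its 404 genes called in both fits were among the 404 of the report. A pseudocount of 0.1 or 10, no filter, a mean of 100 or more, TMM scaling and robust eBayes kept each AHR KO total within 1.5 times, as did the other forms of the GC trend. Single lists moved more. Without a filter, oxidative phosphorylation genes called higher after removal went from 11 to 4 and heat shock genes called lower from 5 to 3. The GC content of the longest transcript moved cytosolic ribosomal protein genes from 9 to 15 called lower and from 4 to 7 called higher. Under it splicing factors called lower went from 7 to 12 and translation initiation genes called higher from 1 to 3. The AHR KO libraries alone gave 4 splicing factors and 3 heat shock genes called lower and 6 oxidative phosphorylation genes called higher.

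The numbers 1 and 3 were not taken as pairs, since no label ties them to an animal. Deviations of same-numbered libraries correlated at r = 0.03 across genes, with 2 pairs. With genotype and replicate number together as a block (the replicate block), calls were 2417, 368 with the trend removed (116 higher) and 292 in both fits (106 higher). After removal the block left 3 splicing factors and 2 heat shock genes called lower and 7 oxidative phosphorylation genes called higher.

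Of 2838 values of named genes under alternatives, 2374 kept direction and side of the threshold, 453 lost the call, 6 gained it and 5 changed sign, none of them called. Leaving out 1 AHR KO library, Aldh3a1 ran from -0.27 (without AHR KO FICZ replicate 3) to 0.64, and from -0.35 to 0.56 with the trend removed. Ugt1a6a ran from -0.57 to 0.029 (without AHR KO FICZ replicate 3, trend removed). Ugt1a7c ran from -0.083 (without AHR KO FICZ replicate 1) to 0.35, and was -0.016 without AHR KO DMSO replicate 3. The cause was not tested. Leaving a library out of a group of 2 assumes that the lone library varies like the others. The depth in reads is unknown, so that no counting limit can be given for low genes.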
